A study of Homo sapiens with 4 samples.

Results

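RNA recovered with biotin-labelled miR-34a was compared with RNA recovered with a control pulldown, labelled NC by the submitters, in HEK293T, a line of human embryonic kidney origin with the large T antigen of SV40. The series holds 4 libraries, all from this line and 1 for each group: the miR-34a pulldown, the control pulldown, total RNA of cells given a miR-34a mimic (a synthetic duplex) and total RNA of cells given a control mimic. The sources used here do not say what the control pulldown consists of. The compared genes were those with at least 20 reads in both pulldown libraries together, after reads were summed over the listed transcripts of each gene name. This left 6253 of the 10662 genes in the pulldown table, out of 16489 genes listed in any of the 4 libraries. Reads of the miR-34a pulldown are called miR-34a reads below, and reads of the control pulldown control reads. The measured genes held 96.1% of the 546180 reads of the miR-34a pulldown and 94.5% of the 306996 reads of the control pulldown. With 1 library on each side there is no replicate check, no p-value was computed, and every statement below is about these libraries.

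miR-34a is a microRNA known for slowing cell growth. It guides Argonaute proteins to messenger RNAs through its seed, the bases near its 5′ end that pair with the target, and the targets known for it include cell cycle kinases, growth factor receptors and Notch receptors. In a biotin pulldown the microRNA carries a tag, the cells are lysed, and RNA that stays with the tagged microRNA is captured on streptavidin. The captured RNA can hold RNA paired to the microRNA and RNA that sticks to the beads, which the control pulldown is meant to measure.

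Mature sequences of 5 members of the miR-34 and miR-449 family, which also holds miR-34c-5p, are shown because the seed is the part of a microRNA that pairs with its target sites. They are printed 5′ to 3′, are taken from RefSeq on GRCh38.p14, and have the letters of the miR-34a seed (bases 2 to 8) in capitals.
hsa-miR-34a-5p: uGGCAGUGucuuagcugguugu
hsa-miR-449a: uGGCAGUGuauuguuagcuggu
hsa-miR-449b-5p: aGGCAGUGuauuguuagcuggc
hsa-miR-34b-5p: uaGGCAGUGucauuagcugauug
hsa-miR-449c-5p: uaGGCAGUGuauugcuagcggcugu
The miR-34a strand lies on the minus strand of chromosome 1, written chr1:9151735-9151756. miR-449a and miR-449b-5p carry the same seed at the same place, and miR-34b-5p and miR-449c-5p carry those 7 letters from base 3 on. The RNA letters that pair with the seed were not searched for in the measured genes, because no transcript sequences were used here.

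For most genes the pulldowns did not differ beyond counting error. The median gene had 36 miR-34a and 19 control reads. The log2 ratio of the miR-34a pulldown over the control pulldown, taken after the library totals were scaled by TMM (edgeR's trimmed mean of M-values), had a median of 0.11 over the 6253 genes, with quartiles at -0.32 and 0.56. On the deposited RPKM values the median of all genes was 0.38 in place of 0.11, and list medians moved with it. A gene is called higher or lower here where the 95% counting interval of its ratio excludes 1, computed on counts divided by 2. By this rule 443 genes were higher (7.08% of those measured) and 229 lower (3.66%). With a difference of at least 2-fold required as well, 302 were higher (4.83%) and 133 lower (2.13%). These shares are the background for every list below.

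How small a difference could be called depended on the reads behind a gene. Among 1258 genes with 20 to 29 reads, 22 were called higher, none at a log2 ratio under 2.79, and 26 lower, none nearer to 0 than -1.80. Among 1618 genes with 50 to 99 reads, 129 were higher, the smallest at 1.08. Among 227 genes with 500 or more reads, 64 were higher, the smallest at 0.19, and 34 were lower, the smallest difference at -0.17. The minimum itself marked no break: 266 genes with 20 or 21 reads had a median log2 ratio of 0.20 and 7 calls, and 298 genes left out with 18 or 19 reads had -0.02 and 6 calls. The lowest control count of any listed transcript is 1, whereas 1575 listed transcripts have 0 miR-34a reads, so RNA recovered by miR-34a alone was not analysed here. Because the minimum is set on both libraries together, a gene with few control reads passed it only through its miR-34a reads. Counts and medians below therefore describe the measured members of a list, not the whole list.

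**Figure D1:**
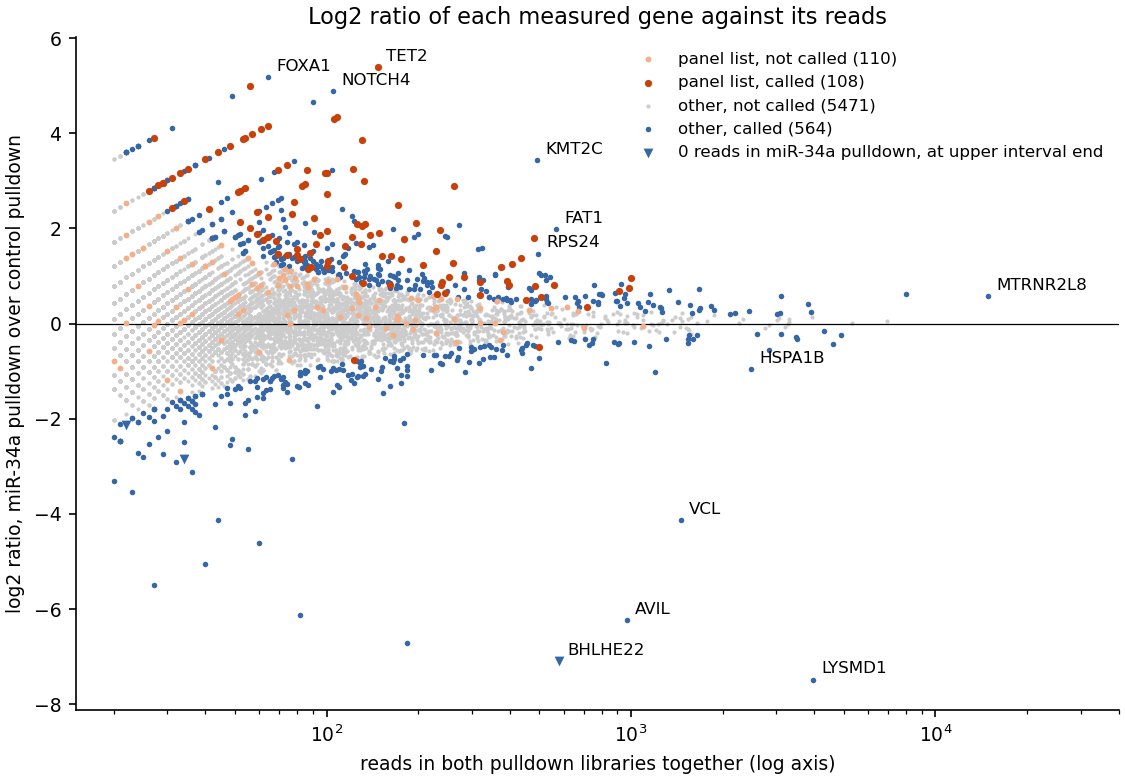
Log2 ratio of the miR-34a pulldown over the control pulldown (vertical axis) against the reads of each of the 6253 genes in both libraries together (horizontal log axis). Called genes are drawn darker, genes of the cancer panel list in orange, and triangles mark genes with 0 reads in the miR-34a pulldown at the upper end of their interval. The band of uncalled genes narrows as reads increase, and 106 of the 108 called panel genes lie above 0.

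The genes with the highest lower interval ends had few control reads. Among the 15 genes ranked first by that end, reads ran from 55 to 467 in the miR-34a pulldown, with a median of 103, and from 1 to 25 in the control pulldown, with a median of 3. TET2, which oxidises methylated cytosine in DNA (chromosome 4, 105145875 to 105279803), had 145 miR-34a and 2 control reads, a log2 ratio of 5.38 (95% counting interval 2.86 to 10.71). In what follows a value in parentheses after the reads is this log2 ratio. KMT2C, a histone H3 lysine methyltransferase (chromosome 7, 152134925 to 152436003), had the most reads of the 15, with 467 in the miR-34a pulldown and 25 in the control pulldown, and its log2 ratio of 3.43 is bounded more closely (2.61 to 4.38). NF1, a brake on RAS (chromosome 17, 31094977 to 31377675), had 243 miR-34a and 19 control reads, a log2 ratio of 2.88 (1.93 to 4.01). In KMT2C and NF1 a large ratio stood beside a control count well above 0.

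The other 12 of these genes fall into signalling, DNA repair and a few single roles. NOTCH4 had 103 miR-34a and 2 control reads (4.89, interval 2.35 to 10.22), and NOTCH3 had 126 miR-34a and 5 control reads (3.86, interval 2.12 to 6.48); both are Notch receptors. MAP3K1, a kinase that activates the JNK and ERK cascades, had 105 miR-34a and 3 control reads (4.33, interval 2.17 to 8.16). PDGFRA, a growth factor receptor and a published miR-34a target, had 55 miR-34a and 1 control read (4.99, interval 1.65 to 15.02). All 4 intervals lie above a 3-fold difference.
The receptor kinase EPHB1 had 94 miR-34a and 6 control reads (log2 ratio 3.17), and BMPR1A, a receptor for bone morphogenetic proteins, had 98 miR-34a and 6 control reads (3.23). Of the DNA repair genes, the damage kinase ATR had 115 miR-34a and 7 control reads (3.24), BRCA2, a mediator of homologous recombination, had 124 miR-34a and 9 control reads (2.99), and the helicase BRIP1 had 62 miR-34a and 2 control reads (4.16). SDHD, an anchor subunit of succinate dehydrogenase, had 103 miR-34a and 3 control reads (4.31), CNTNAP1, an adhesion protein of myelinated axons, had 88 miR-34a and 2 control reads (4.66), and the pioneer transcription factor FOXA1 had 63 miR-34a and 1 control read (5.18). In the total RNA after the control mimic these 15 genes had 55 to 3923 reads, with a median of 1095, against a median of 3466 for all measured genes. 8 of the 15 are in the deposited UTR subset, whose criterion the sources used here do not state, as are 27.1% of measured genes. On the cancer panel list described below are 10 of the 15, and 218 of the 6253 measured genes.

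**Figure D2:**
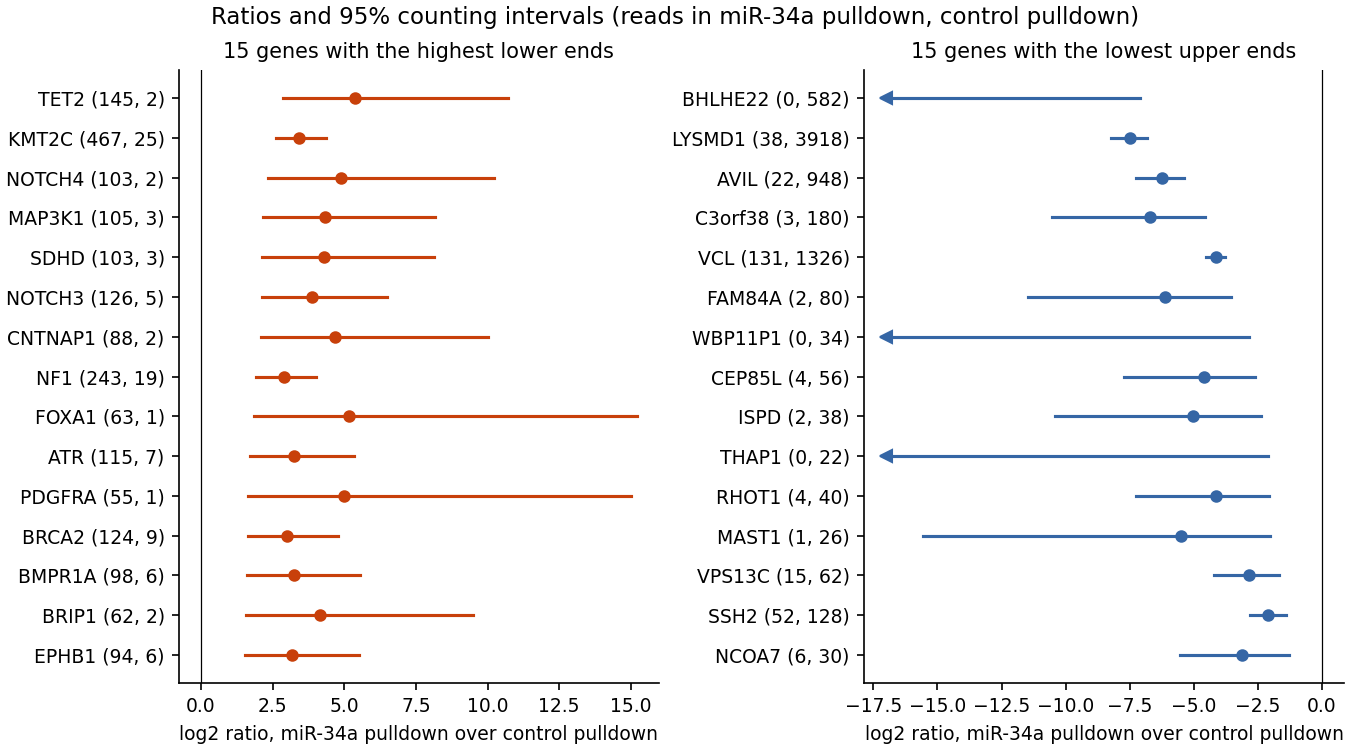
Log2 ratio of the miR-34a pulldown over the control pulldown (horizontal axis) of the 15 genes with the highest lower interval ends (left) and the 15 with the lowest upper ends (right). Points are ratios, bars are 95% counting intervals, arrows mark genes with 0 reads in the miR-34a pulldown, and the numbers after each name are its miR-34a reads and its control reads. The bars on the left are widest for FOXA1 and PDGFRA, which had 1 control read each.

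The genes with the lowest upper interval ends included 4 with over 500 control reads. LYSMD1, a gene with a LysM domain (chromosome 1, 151148496 to 151165902), had 38 miR-34a and 3918 control reads (-7.48, interval -8.22 to -6.84). BHLHE22, a transcription factor of neurons (chromosome 8, 64580365 to 64583627), had 0 miR-34a and 582 control reads, and its interval puts it at least 136-fold lower. AVIL, which binds actin and is related to villin (chromosome 12, 57797380 to 57818734), had 22 miR-34a and 948 control reads (-6.23). VCL, the gene of vinculin, a linker of focal adhesions to actin (chromosome 10, 73998116 to 74121363), had 131 miR-34a and 1326 control reads (-4.14, interval -4.52 to -3.77). For these 4 genes the control pulldown held more reads although its total was smaller.
The remaining 11 genes of this rank had 128 or fewer control reads, apart from C3orf38 with 3 miR-34a and 180 control reads (-6.70). SSH2, a phosphatase of the actin regulator cofilin, had 52 miR-34a and 128 control reads (-2.10), VPS13C, a lipid transfer protein, had 15 miR-34a and 62 control reads (-2.84), and RHOT1, which links mitochondria to motors, had 4 miR-34a and 40 control reads (-4.12). FAM84A, CEP85L, ISPD, NCOA7 and MAST1 had 1 to 6 miR-34a reads and 26 to 80 control reads. WBP11P1, a pseudogene that can share reads with its parent gene, had 0 miR-34a and 34 control reads and was at least 7.17-fold lower. THAP1, a zinc finger protein, had 0 miR-34a and 22 control reads and was at least 4.36-fold lower. None of these 15 genes is on the cancer panel list, and 2 are in the UTR subset.

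The RNAs with the most reads were nearly the same in both pulldowns, and apart from LYSMD1 their log2 ratios lay between -0.42 and 0.63. The 10 genes with the most reads held 7.39% of the miR-34a pulldown (Clopper-Pearson 95% interval 7.33% to 7.46%) and 7.55% of the control pulldown (7.46% to 7.65%), and 7 genes were in both sets. MTRNR2L8, a nuclear copy of the mitochondrial 16S ribosomal RNA gene, had the most, with 10732 miR-34a and 4122 control reads (0.58, interval 0.51 to 0.66). Reads of such copies cannot be told apart from each other or from the mitochondrial RNA, so the 5 measured MTRNR2L genes are given as a sum, which was 3.93% of the miR-34a pulldown and 2.82% of the control pulldown. The linker histone genes HIST1H1E, with 4447 miR-34a and 2462 control reads, and HIST1H1C, with 3392 miR-34a and 1942 control reads, had log2 ratios of 0.06 and 0.01 whose intervals include 0. FLNA, the actin crosslinker filamin A, had 2598 miR-34a and 2002 control reads and was lower (-0.42, interval -0.54 to -0.30). EEF2, the factor that moves the ribosome along, had 2921 miR-34a and 1984 control reads (-0.24), a direction that turned to 0.03 on the deposited RPKM values.

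Both pulldowns held RNAs that the total RNA libraries barely showed. The total RNA library was 78.1 times as deep as the pulldown for the miR-34a mimic and 148 times for the control. Even so, 62 measured genes had more reads in the miR-34a pulldown than in the miR-34a mimic total RNA, and 56 had more in the control pulldown than in the control mimic total RNA. Clustered histone genes, whose messages end in a stem-loop and not in a poly(A) tail, made up 48 of the 62 and 46 of the 56. The 49 measured histone genes together had 46034 reads in the miR-34a pulldown, against 6110 in the miR-34a mimic total RNA, and 27065 in the control pulldown, against 10262 in the control mimic total RNA. The sources used here do not say how RNA was selected for each library.
Apart from histone and MTRNR2L genes, 9 genes passed the total RNA on the miR-34a side and 6 on the control side. COL1A2, with 10 miR-34a and 15 control reads, was not listed for the total RNA libraries, so it was left out of this comparison. The angiopoietin receptor TEK had 79 reads in the miR-34a pulldown, against 15 in the miR-34a mimic total RNA, and the VEGF receptor KDR had 77, against 28. The plasma cell regulator PRDM1 had 38 against 22, and the B cell kinase BTK had 24 against 10. NOTCH4 had 103 against 42, PDGFRA had 55 against 47 and SNAP25 had 25 against 16. FAM84A had 2 against 0. On the control side BHLHE22 had 582 reads in the pulldown, against 12 in the total RNA, LYSMD1 had 3918 against 1360, AVIL had 948 against 327 and FAM84A had 80 against 14. WBP11P1 had 34 against 8 and TEK had 6 against 4.

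**Figure D3:**
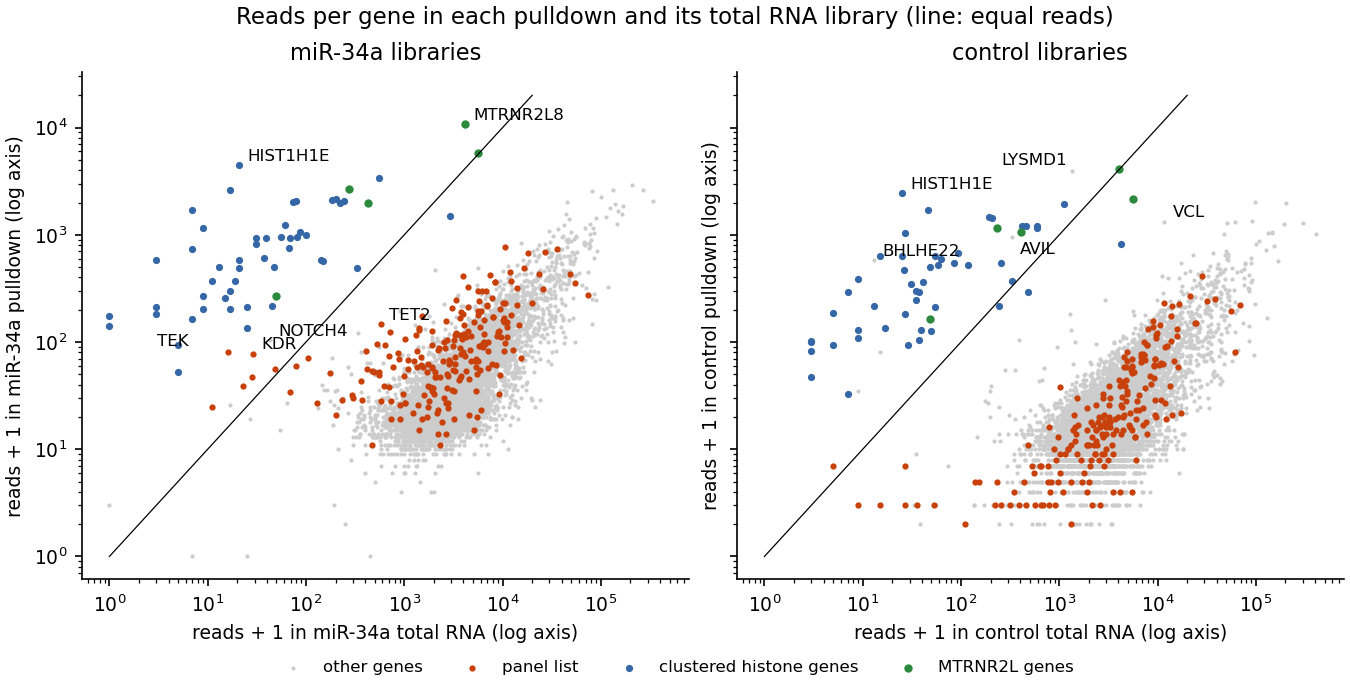
Reads of each measured gene in a pulldown (vertical log axis) against reads in the total RNA library of the same side (horizontal log axis), 1 added to both, for miR-34a (left) and control (right). The line marks equal reads. Of the 49 clustered histone genes (blue), 48 lie above the line on the left and 46 on the right; TEK, KDR and NOTCH4 lie above it on the left, and LYSMD1, BHLHE22 and AVIL lie above it on the right.

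Published targets of miR-34a had a median ratio close to that of all genes. Of 66 genes on a list of published targets, written from general knowledge of the literature, 40 were measured; 8 were higher (20%), 1 was lower and 31 were neither, and their median was 0.13, with 0.11 for all genes. The higher ones were led by PDGFRA and by MYCN, a MYC family transcription factor with 59 miR-34a and 2 control reads (4.09). AXIN2, a brake on Wnt signalling, had 63 miR-34a and 6 control reads (2.60), the hepatocyte growth factor receptor MET had 81 miR-34a and 10 control reads (2.22), and the TGF-beta mediator SMAD4 had 51 miR-34a and 8 control reads (1.88). NOTCH1 had 326 miR-34a and 79 control reads (1.25), NOTCH2 had 420 miR-34a and 137 control reads (0.82), and the mitotic kinase PLK1 had 245 miR-34a and 72 control reads (0.97). VCL was the lower one. Among the 13 targets on the cancer panel list described below 6 were higher, and among the 27 others 2 were, with a median of -0.09.
Several targets often used for this microRNA were not called. The cell cycle kinase CDK6 had 47 miR-34a and 13 control reads (1.06, interval -0.24 to 2.58), CCND1, its cyclin partner, had 161 miR-34a and 62 control reads (0.58, interval -0.03 to 1.23), and CDK4 had 313 miR-34a and 148 control reads (0.28, interval -0.12 to 0.70). MYC had 86 miR-34a and 52 control reads (-0.07), the deacetylase SIRT1 had 12 miR-34a and 11 control reads (-0.67), and E2F3 had 14 miR-34a and 15 control reads (-0.90). The intervals of SIRT1 (-2.61 to 1.30) and E2F3 (-2.61 to 0.80) reach past 2-fold higher and 1.5-fold higher, so such differences are not excluded. Among genes with 20 to 29 reads in both libraries together, none was called higher under a log2 ratio of 2.79. These 6 targets were named after their values were seen.

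Genes that cancer sequencing panels commonly carry had a list of their own. It may differ from any real panel, so a gene off the list may still be carried by one. Of 316 genes on a list written from general knowledge of such panels, with earlier results of these data in view, 240 were in the pulldown table and 218 were measured. 106 of them (48.6%) were higher and 2 were lower, and 86 were at least 2-fold higher, with a median log2 ratio of 0.99. Of the 6035 measured genes off the list, 337 (5.58%) were higher and 227 lower, and their median was 0.09. Panel genes held 4.61% of the reads of the miR-34a pulldown and 2.82% of those of the control pulldown, and they made up 23.9% of all higher genes. Their median was 71 miR-34a and 17 control reads, against 35 miR-34a and 19 control reads for the other genes. The 2 lower ones were the ER chaperone CALR, with 275 miR-34a and 222 control reads (-0.49), and the transcription factor JUN, with 62 miR-34a and 61 control reads (-0.77).
The panel genes differed from the others most where total RNA was scarce. The measured genes were split into 5 equal groups by reads in the control mimic total RNA, from 2 to 1736 reads in the lowest group to 7351 to 410416 in the highest. In the lowest group the panel median was 2.79 over 57 genes, 42 of them higher, and that of the other genes was 0.03. In the groups that follow, the panel medians were 1.29, 0.96 and 0.85, with 33, 33 and 42 genes, and in the highest group 0.35 with 53 genes. The medians of the other genes stayed between 0.01 and 0.14 in every group. Over all genes the ratio was hardly related to total RNA reads (Pearson r = -0.03, Spearman rho = 0.03, 6252 genes) and only weakly to the span of the gene on the chromosome (r = 0.06, rho = 0.06, 6225 genes), as a description across genes, which are not replicates. Whether the 20-read minimum, which a gene with few control reads passed only through its miR-34a reads, or the choice of the list has a part in this was not tested.

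**Figure D4:**
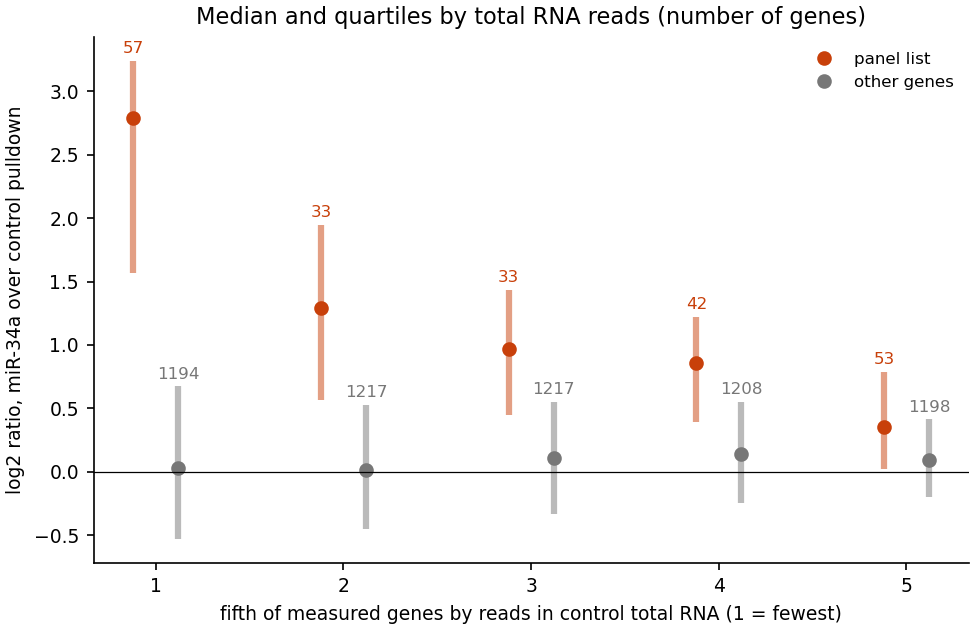
Median (points) and quartiles (bars) of the log2 ratio of the miR-34a pulldown over the control pulldown, for panel genes (orange, left of each pair) and other genes (grey), in 5 equal groups of measured genes ordered by reads in the control mimic total RNA. Numbers above the bars are genes. The panel median is 2.79 in the lowest group and 0.35 in the highest, and the medians of other genes lie near 0 throughout.

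Among signalling genes the calls fell mostly on panel genes. Of 28 measured receptor tyrosine kinases, 16 were higher, all by at least 2-fold, and none was lower, with a median of 1.84; the 20 on the panel list had a median of 2.40 with 14 higher, and the 8 off it had 0.00 with 2 higher. After PDGFRA the highest were ERBB3, with 55 miR-34a and 2 control reads (3.99), the ephrin receptor EPHB3, with 25 miR-34a and 1 control read (3.85), RET, with 70 miR-34a and 4 control reads (3.33), and EGFR, with 81 miR-34a and 5 control reads (3.22). The 3 receptors with the most control reads were not called: the IGF1 receptor IGF1R had 192 miR-34a and 77 control reads (0.52), the Wnt co-receptor PTK7 had 85 miR-34a and 58 control reads (-0.24), and FGFR1 had 84 miR-34a and 43 control reads (0.17).
In PI3K, RAS and MAPK signalling 11 of 34 measured genes were higher and none lower, with a median of 0.79, and all 11 are panel genes; the 8 off the panel had a median of 0.15. Next to MAP3K1 and NF1 they included PIK3CA, the catalytic subunit of PI3K alpha, with 51 miR-34a and 2 control reads (3.88), and the mTORC2 subunit RICTOR, with 71 miR-34a and 7 control reads (2.55). The GTPase gene NRAS was not called, with 14 miR-34a and 12 control reads (-0.57). In the Notch pathway 5 of 15 were higher, namely the 4 receptors and SPEN, a corepressor with 671 miR-34a and 239 control reads (0.69), and none of the ligands was. The ligand JAG1 had 18 miR-34a and 8 control reads (0.37), and JAG2 had 23 miR-34a and 12 control reads (0.14).

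Homologous recombination and Fanconi genes were high on and off the panel list used here, which may differ from any real panel. 17 of 27 measured genes were higher, none was lower, and the median log2 ratio was 1.82; it was 1.74 for the 15 panel genes and 1.85 for the 12 others, of which 9 were higher. PALB2, the partner of BRCA2, had 93 miR-34a and 6 control reads (3.16), the kinase ATM had 92 miR-34a and 8 control reads (2.73), and BRCA1 had 111 miR-34a and 15 control reads (2.09). Off the panel list, RAD50 of the MRN complex had 65 miR-34a and 6 control reads (2.64), the Fanconi translocase FANCM had 54 miR-34a and 6 control reads (2.37), the nuclease scaffold SLX4 had 173 miR-34a and 27 control reads (1.88), and the helicase RECQL4 had 166 miR-34a and 27 control reads (1.82). The translocase RAD54L, with 26 miR-34a and 19 control reads (-0.34), was not called.
In nucleotide excision and mismatch repair 6 of 20 were higher and 1 was lower, with a median of 0.34. The nuclease ERCC5 had 48 miR-34a and 1 control read (4.79), its partner in incision ERCC4 had 67 miR-34a and 13 control reads (1.57), and the damage sensor XPC had 55 miR-34a and 11 control reads (1.53). The lower one was ERCC6, which acts in transcription-coupled repair, with 8 miR-34a and 26 control reads (-2.50).

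Chromatin genes fell into 3 lists. Of 32 histone lysine methyltransferases and demethylases, 9 were higher and 1 lower, and the median was 0.29. After KMT2C these were SETD2, the H3K36 methyltransferase, with 205 miR-34a and 30 control reads (1.98), the demethylase KDM6A with 87 miR-34a and 13 control reads (1.95), KMT2B with 211 miR-34a and 34 control reads (1.84) and KMT2A with 413 miR-34a and 68 control reads (1.81). KMT2D had 770 miR-34a and 229 control reads (0.95), and the related SETD1A was lower, with 61 miR-34a and 73 control reads (-1.06). Of these enzymes 6 of 10 on the panel list were higher, with a median of 0.84, and 3 of 22 off it, with 0.10. Of 31 SWI/SNF and CHD remodelers 7 were higher and none lower, and the median was 0.50. They included the 3 ARID subunits, ARID2 with 153 miR-34a and 26 control reads (1.76), ARID1B with 264 miR-34a and 51 control reads (1.58) and ARID1A with 364 miR-34a and 121 control reads (0.79). Of the remodelers 3 of 5 on the panel list and 4 of 26 off it were higher. Of 9 DNA methylation enzymes 2 were higher, TET2 and the de novo methyltransferase DNMT3A with 57 miR-34a and 12 control reads (1.45), and the 7 off the panel list had a median of -0.12. Counted on its transcript with the most reads alone, DNMT3A was not called (1.15).

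Ribosomal protein genes had small differences, and every call among them was higher. Of 81 measured cytosolic ribosomal protein genes and their relatives, 54 were higher and none lower, 6 of them by at least 2-fold, and the median was 0.42. They held 10.2% of the reads of the miR-34a pulldown and 8.19% of those of the control pulldown, and none is on the panel list. Because they have many reads, small differences passed the rule. RPS24 had 409 miR-34a and 85 control reads (1.47, interval 0.99 to 1.98), RPL26 had 301 miR-34a and 76 control reads (1.19), and RPL17 had 390 miR-34a and 108 control reads (1.06). RPL3, with 1438 miR-34a and 823 control reads (0.01), and RPL7A, with 1786 miR-34a and 1045 control reads (-0.02), were not called. The lowest ratio of the list was that of RPL7L1, a relative of RPL7, with 52 miR-34a and 45 control reads (-0.59, not called). Many of these genes have processed pseudogenes, and the sources used here do not say how the authors' counting split shared reads. Of the 59 measured mitochondrial ribosomal protein genes, 1 was higher, MRPL45 with 31 miR-34a and 4 control reads (2.16), and the median was 0.04.
Other genes of protein synthesis and turnover were counted in the same way. Of 53 translation initiation and elongation factors 6 (11.3%) were higher, led by EIF3M with 94 miR-34a and 20 control reads (1.44), and 2 were lower, EEF2 and EEF1A2; the median was 0.23. Of 28 aminoacyl-tRNA synthetases 4 (14.3%) were higher, 2 with unscaled totals or DESeq2 size factors, led by KARS with 118 miR-34a and 29 control reads (1.23), and VARS was lower with 196 miR-34a and 164 control reads (-0.54). Among 32 proteasome subunits PSMC3 alone was called, higher at 0.42. The call was lost with DESeq2 size factors, with unscaled totals and with totals taken over the most-read transcripts. PSMC3 has 1 listed transcript, so its own reads did not change there. Of 27 USP deubiquitinases none was called in either direction.

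Respiratory chain genes were called at shares near those of all genes, and SDHD led the higher ones. Of 71 measured genes 6 (8.45%) were higher and 2 (2.82%) lower, against 7.08% and 3.66% of all genes. The median was 0.28. Off the panel list 4 of 67 were higher (5.97%), against 5.58% of all genes off it, and on it 2 of 4 were. Next to SDHD, SDHC had 49 miR-34a and 7 control reads (2.01), and NDUFA4, a small subunit linked to cytochrome c oxidase, had 29 miR-34a and 3 control reads (2.48). SDHA, with 219 miR-34a and 101 control reads (0.32), and SDHB, with 112 miR-34a and 58 control reads (0.15), which form the catalytic part of the same enzyme, were not called. The 2 lower genes were ATP5D, with 85 miR-34a and 82 control reads (-0.74), and ATP5SL, which the list took in by its name, with 11 miR-34a and 21 control reads (-1.73).

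Collagens and laminins were the list with the lowest median. Of 15 measured genes none was higher and 6 were lower, 4 by at least 2-fold, and the median log2 ratio was -0.98, or -0.71 on the deposited RPKM values. The basement membrane collagen COL4A1 had 19 miR-34a and 39 control reads (-1.83, interval -3.13 to -0.65), and COL5A1, of fibrillar collagen, had 79 miR-34a and 96 control reads (-1.08, interval -1.72 to -0.44). The laminin chains LAMC1, with 86 miR-34a and 98 control reads (-0.98), LAMA5, with 53 miR-34a and 60 control reads (-0.98), and LAMA4, with 7 miR-34a and 17 control reads (-2.08), and the collagen COL6A2, with 8 miR-34a and 19 control reads (-2.04), were also lower. LAMB1, with 54 miR-34a and 20 control reads (0.64), had the highest ratio of the list and was not called.
Of 25 focal adhesion genes 3 were lower, VCL, FLNA and the integrin linker TLN1 with 509 miR-34a and 397 control reads (-0.44). PTK2, the focal adhesion kinase, was higher with 57 miR-34a and 6 control reads (2.45). The median of this list was -0.06 and turned to 0.21 on the deposited RPKM values. Calls among heat shock chaperones went in both directions. HSP90AA1 had 699 miR-34a and 226 control reads (0.83), whereas HSPA1A had 554 miR-34a and 649 control reads (-1.02) and its near-identical copy HSPA1B had 1168 miR-34a and 1302 control reads (-0.95), which may share reads. Of the 39 measured chaperone genes and cofactors 3 (7.69%) were higher and 2 (5.13%) lower, near the 7.08% and 3.66% of all genes.

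Transcription factors and transporters were taken by family. Of 26 forkhead and SOX factors 5 (19.2%) were higher and 1 lower, and the median was 0.40 (-0.13 with a minimum of 100 reads, chosen after the data were seen); next to FOXA1, the endoderm factor SOX17 had 51 miR-34a and 2 control reads (3.88) and the pluripotency factor SOX2 had 65 miR-34a and 4 control reads (3.23). SOX4 was lower, with 66 miR-34a and 95 control reads (-1.32). On the panel list 2 of 3 forkhead and SOX factors, SOX2 among them, were higher. Off it 3 of 23 were, with a median of 0.33. The prostate factor HOXB13, with 60 miR-34a and 6 control reads (2.53), was 1 of 4 measured HOX genes and the 1 called. Of 307 listed ZNF genes 111 reached 20 reads; 5 were higher, among them ZNF275 with 64 miR-34a and 8 control reads (2.20) and ZNF217 with 134 miR-34a and 29 control reads (1.41), and 4 were lower. Of 69 solute carriers 3 were higher, led by the folate carrier SLC19A1 with 109 miR-34a and 14 control reads (2.16), and 3 lower, among them the amino acid transporter SLC7A5 with 257 miR-34a and 243 control reads (-0.72). Their median of -0.21 turned to 0.06 on the deposited RPKM values. Of 15 ABC transporter genes 3 were higher, among them those of the drug exporter ABCB1, with 44 miR-34a and 2 control reads (3.66), and of ABCC4, with 30 miR-34a and 1 control read (4.11). ABCF2 was lower, with 81 miR-34a and 81 control reads (-0.80), and the median of the 15 genes was -0.06, which turned to 0.21 with RPKM.
The remaining lists had no more than 7 calls in either direction. In cholesterol synthesis none of 19 genes was called in either direction, and none of 9 KLF and SP factors was. Of 18 glycolysis genes ENO1 alone was called, lower at -0.21, and it turned to 0.06 on the deposited RPKM values. Of the 49 clustered histone genes 3 (6.12%) were higher and 7 (14.3%) lower, none by 2-fold. Of 26 G1/S genes 4 (15.4%) were higher, led by CCNE1 with 55 miR-34a and 9 control reads (1.82). On the panel list 3 of 11 G1/S genes were higher, and off it 1 of 15 was, with a median of -0.06. Of 25 mitotic genes 2 (8%) were higher, BUB1, with 84 miR-34a and 16 control reads (1.60), and PLK1. ESPL1, with 149 miR-34a and 123 control reads (-0.52), was lower. Of 24 genes of the silencing machinery 2 (8.33%) were higher, near the 7.08% of all genes. The microRNA processing enzyme DICER1 had 129 miR-34a and 30 control reads (1.31). The decapping factor LSM14A had 51 miR-34a and 9 control reads (1.71). Of 25 kinesins the cargo motor KIF5B was higher, with 148 miR-34a and 39 control reads (1.13), and KIF26A was lower, with 59 miR-34a and 73 control reads (-1.10). Of 40 splicing genes (SR proteins, hnRNPs and SF3 subunits) 4 were higher, led by HNRNPDL with 67 miR-34a and 13 control reads (1.57), and 2 were lower, among them HNRNPA0 with 81 miR-34a and 89 control reads (-0.93). None of 3 measured long noncoding RNA genes was called. With each gene counted on its most-read transcript alone, and totals taken over those transcripts, DICER1 stood at 0.07 and LSM14A at 1.47, and neither was called; PTK2 (2.06), XPC (2.06) and NPM1 (0.69) also lost their calls there. On the deposited RPKM values the lower calls of CALR, JUN, EEF1A2, ATP5D, ATP5SL, VARS, TLN1 and ESPL1 were lost.

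**Figure D5:**
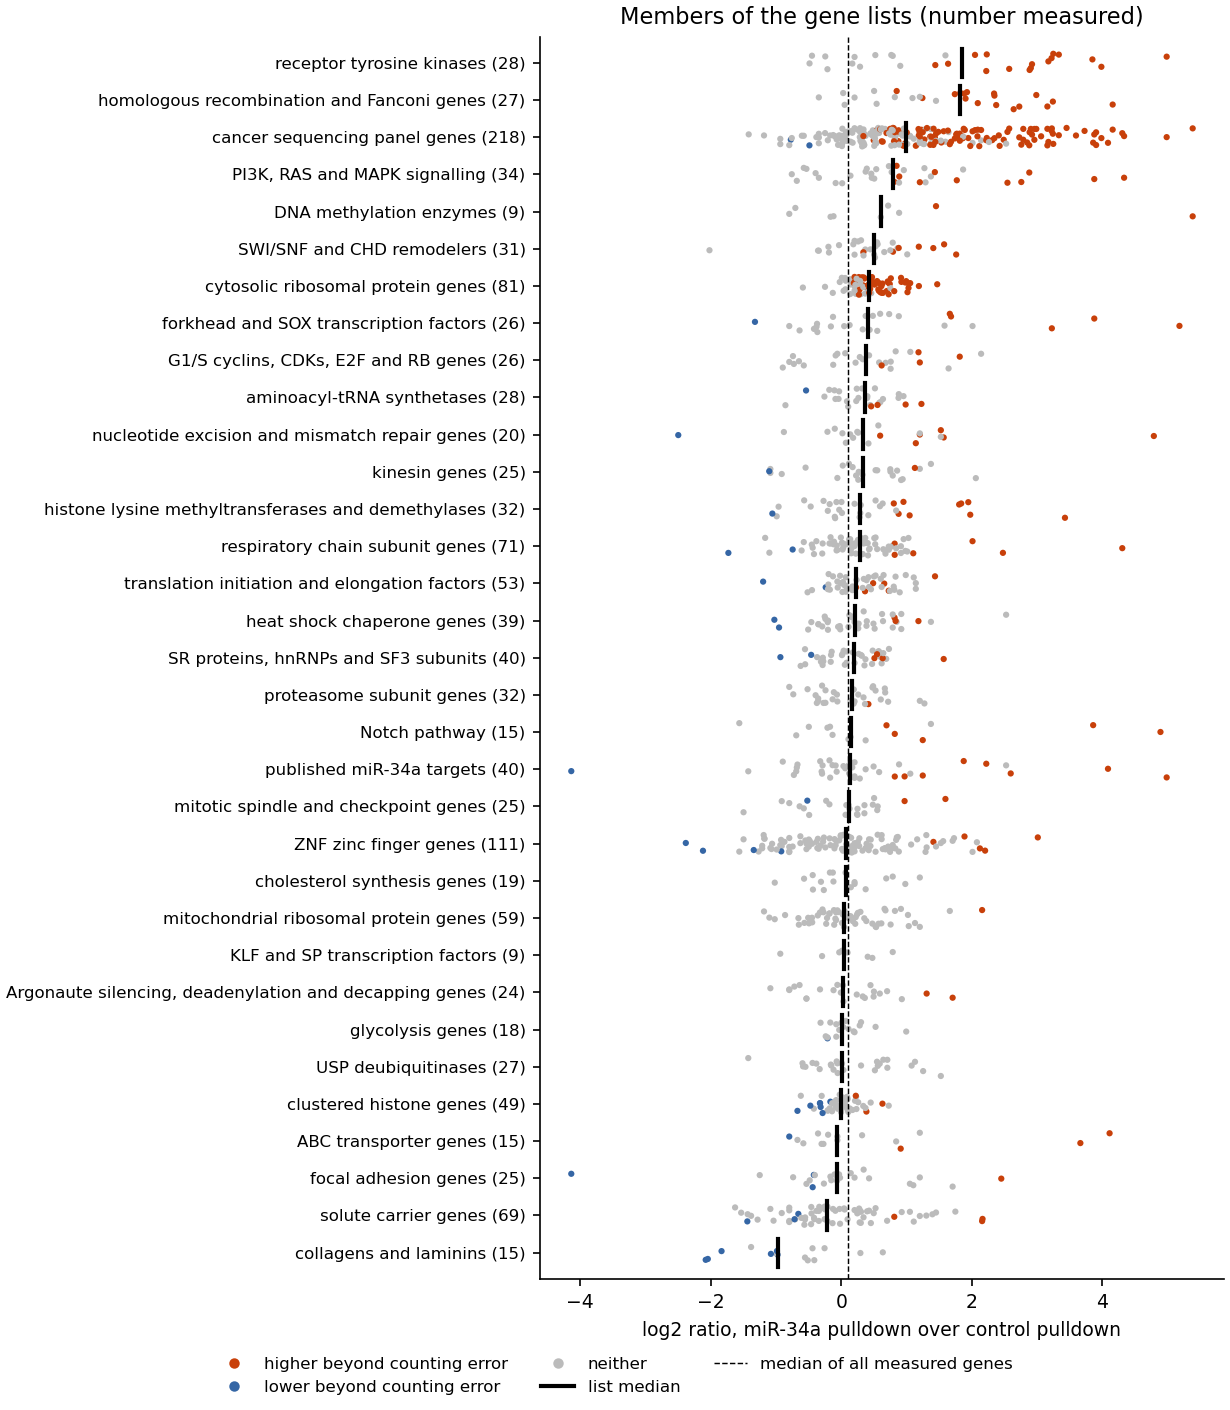
Log2 ratio of the miR-34a pulldown over the control pulldown (horizontal axis) of every measured member of the lists with at least 9 measured genes, ordered by list median (black bars). The number measured follows each list's name, colours mark genes called higher or lower, and the dashed line is the median of all measured genes. Receptor tyrosine kinases (1.84) and homologous recombination genes (1.82) have the highest medians, and collagens and laminins (-0.98) have the lowest.

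Transcripts of a gene mostly had similar reads, while their log2 ratios spread by a median of 0.72. Of 1302 genes with several transcripts of at least 20 reads, 60.4% had a most-read transcript with under 1.5 times the reads of the least-read one. In 6 genes the intervals of a pair of transcripts did not overlap. Intervals are wide at few reads, so overlap in the other genes does not show that their transcripts had equal ratios. All 3 transcripts of NPM1, a nucleolar chaperone, were higher, with 357 miR-34a and 79 control reads in sum (1.38), although their log2 ratios ran from 0.75 to 2.82. In NDUFA11, of complex I, a transcript with 13 miR-34a and 38 control reads was lower (-2.34) beside another with 74 miR-34a and 22 control reads that was not called (0.95).

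The markers listed for the line and for other cell types were looked up in the same tables, where less RNA per cell and fewer cells with a gene cannot be told apart. 7 of 9 genes known from HEK293T cells were measured, with 1991 miR-34a and 1230 control reads. Among them the intermediate filament gene NES was higher, with 52 miR-34a and 8 control reads (1.90), and VIM was lower, with 407 miR-34a and 320 control reads (-0.45). None of 8 blood markers and none of 4 hepatocyte markers was listed in the pulldown table. Of 6 fibroblast markers 2 were measured, with 23 miR-34a and 26 control reads in sum. Of 4 endothelial markers KDR alone was measured, with 77 miR-34a and 6 control reads, while PECAM1 had 0 miR-34a and 9 control reads and CDH5 had 0 miR-34a and 19 control reads.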

How the data were processed

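Pulldown and total RNA libraries were compared as the authors deposited them, with counts of reads for each RefSeq transcript, whole and not normalized. An RPKM value stands beside each count in the deposited tables. Per the submitters' processing notes, Bowtie2 and edgeR were used on hg38; other steps are not stated in the sources used here. The RPKM divisor was the same for all transcripts of a gene and did not follow gene span (Spearman -0.15 across 10572 genes), so RPKM served only as another scaling and levels were not compared between genes. Reads were summed per gene name, 33 date-like names were resolved through accessions, and 98.8% of transcripts matched the GRCh38.p14 RefSeq gene table. TMM factors were 0.988 for the miR-34a pulldown and 1.01 for the control pulldown (edgeR 4.0.16, R 4.3.3). DESeq2 1.42.0 gave size factors for an alternative.

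Small counts (2 to 9 reads, single-transcript genes) were even in 61.7% of miR-34a pulldown and 73.5% of control pulldown cases, as when a pair counts as 2 reads, so exact conditional binomial (Clopper-Pearson) intervals were taken on counts divided by 2 (Python 3.11.15, scipy 1.17.1). They cover counting error only. For the log2 ratio, and so for medians and the 2-fold rule, a library at 0 was set to 3 reads. The intervals, and the ranking by their ends, kept the 0. Named genes were the 15 with the highest lower and the 15 with the lowest upper interval ends, the 10 with the most reads per pulldown, up to 3 called members of each of 35 lists per direction, called published targets and up to 6 genes with transcripts apart; further genes beside these were picked after their values were seen. The members, lists and rule were chosen with earlier results of these data known. Results for a few genes are not reported here.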

Additional observations from a re-analysis of the deposited data

How the results depend on the processing

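No paired analysis was possible because each group has 1 library, and for the same reason no library could be left out and no DESeq2 test was run. The counts of higher and of lower genes and the median over all genes were set against the main ones. A count was taken as moved beyond a 1.5-fold change, and the median beyond a shift of 0.1. In 5 settings at least 1 of these values moved. On the deposited RPKM values 893 genes were higher, 89 were lower and the median log2 ratio was 0.38. With intervals on the counts as deposited 968 were higher and 587 lower, and with 99% intervals 228 were higher and 107 lower. With a minimum of 100 reads, chosen after seeing the data, 238 were higher and 117 lower. Without any minimum the median moved to -0.047, while 284 genes were lower, a count within the limit. In the other settings tried, 324 to 443 genes were higher, 166 to 268 lower, and the median lay between 0.07 and 0.11. Counted on the most-read transcript of each gene, 311 of the 443 higher and 176 of the 229 lower genes kept their call. Of the named genes, 4 changed sign, all on the deposited RPKM values: ACTG1 to 0.051, EEF2 to 0.031, ENO1 to 0.059 and HIST1H2AG to 0.10; the scaling itself shifts every ratio upward. At this depth a gene with 20 to 29 reads was called higher only at a log2 ratio of 2.79 or more.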
